A study of Mus musculus with 16 samples.

Results

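The 10 genes described here are Gpnmb, Trem2, Itgax, Cd9, Lgals3, Mmp12, Spp1, Ctsk, Atp6v0d2 and Dcstamp, which mark lipid-laden and multinucleated giant macrophages. They were taken as the rows of the deposited count table, 10 of 54838 genes, whose Ensembl identifier carries 1 of these symbols in the GENCODE M21 annotation. They were chosen with earlier results on the same adrenals known. Whether a member passed the threshold between genotypes is therefore stated only as a description, beside the share of all genes that did, with no p-value and nothing read from it.

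Macrophages that take up more lipid than they can export become foam cells and turn on a shared lysosomal and lipid-handling programme. TREM2 is a surface receptor for lipids and lipoproteins that signals through the adaptor DAP12, and GPNMB, CD9, galectin-3, osteopontin and CD11c accompany TREM2 on such cells in fat, arteries, liver and brain. When macrophages fuse, as osteoclasts and giant cells do, DC-STAMP acts at the membrane, a V-ATPase carrying the d2 subunit acidifies the cell border or its vacuoles, and cathepsin K digests collagen. In the mouse adrenal, macrophages take up cortical cells as the X-zone regresses, and lipid-filled and multinucleated cells of this kind are known from ageing adrenals.

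Whole adrenal glands of mice aged 4 weeks, of mixed genetic background, were profiled by RNA sequencing. The 16 libraries fall into 4 groups of 4, each library from another mouse: female control, female Rspo1 GOF, male control and male Rspo1 GOF. GOF stands for a gain-of-function allele of Rspo1, a secreted enhancer of WNT signalling. The labels used here do not give the promoter or cell type that drives the allele, nor what the controls carry. Animals within a group are numbered 1 to 4 only to name them. Library totals ran from 31275146 to 43003968 counts. Levels are CPM, counts relative to library size and composition, unless FPKM, which also divide by transcript length and so allow genes to be compared, are named. A gene was called at an adjusted p under 0.05 in edgeR's quasi-likelihood test over 18214 genes. Rspo1 lay at 3.2 to 48.2 CPM in the 8 control libraries and at 353.7 to 971.6 CPM in the 8 GOF libraries, with no overlap.

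Some libraries held markers of other tissue. Kidney tubule markers summed to 1384.8 CPM in the first female control and 230.9 CPM in the third, and to at most 5.82 CPM in the other libraries. Liver markers summed to 10066.6 CPM in male control 2, to 182.7 to 777.7 CPM in the other male controls, 8.43 to 89.7 CPM in male GOF, 118.2 to 174.3 CPM in female controls and 15.3 to 43.4 CPM in female GOF. In males 11 of 11 of them were called lower in GOF. In the GOF groups all 8 medulla markers and all 6 Schwann and sustentacular markers were called lower in both sexes, and so were 8 (females) and 9 (males) of 9 capsule and fibroblast markers. Adrenal cortex markers summed to 34757.6 to 55783.4 CPM, with overlapping ranges in all groups. Melanocyte markers, which could share Gpnmb, summed to at most 1.46 CPM, and 2 of 6 were at 0 in every library of a group.

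All 10 genes passed the filter on low counts. Dcstamp had 10 or more counts in only 9 of 16 libraries, none of them a GOF female, and the other members did so in all 16. Gpnmb lies on chromosome 6 (GRCm38, 49036546 to 49070929, plus strand), Trem2 on chromosome 17 (48346401 to 48354147, plus strand), Mmp12 on chromosome 9 (7344381 to 7369499, plus strand) and Spp1 on chromosome 5 (104435118 to 104441050, plus strand). Annotated genes that overlap Cd9, Spp1 or Mmp12 held at most 12 counts in any library. How reads in the shared bases were assigned is not given in the sources used here.

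The sequences just upstream of 4 of the genes that move together below, and of Spp1, which moves apart from them, are shown to let their promoters be compared. Of the others that move with these 4, Lgals3 is not printed and Atp6v0d2 had no RefSeq entry. Each runs 5′ to 3′ on the gene's strand over the 250 bases before a RefSeq start (GRCm38.p6), and 8 of the 10 members had an entry. Capitals mark matches, on either strand, to the M-box TCATGTG and the E-boxes CACGTG and CATGTG (known for MITF and its relatives), the AP-1 site TGANTCA and the ETS core GAGGAA. The M-box contains CATGTG, so these overlap. The Gpnmb (chr6:49036268-49036517), Trem2 (chr17:48346151-48346400) and Spp1 (chr5:104434861-104435110) windows lie upstream of the annotated gene. The Mmp12 window (chr9:7347124-7347373) precedes the downstream of its 2 starts and is intronic, and the Itgax window (chr7:128129300-128129549) shares its last 3 bases with an annotated exon.
Gpnmb: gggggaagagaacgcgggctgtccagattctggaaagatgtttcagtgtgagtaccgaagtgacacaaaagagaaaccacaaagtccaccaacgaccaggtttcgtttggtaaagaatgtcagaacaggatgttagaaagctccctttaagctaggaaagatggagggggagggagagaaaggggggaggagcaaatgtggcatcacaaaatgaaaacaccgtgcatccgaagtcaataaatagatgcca
Trem2: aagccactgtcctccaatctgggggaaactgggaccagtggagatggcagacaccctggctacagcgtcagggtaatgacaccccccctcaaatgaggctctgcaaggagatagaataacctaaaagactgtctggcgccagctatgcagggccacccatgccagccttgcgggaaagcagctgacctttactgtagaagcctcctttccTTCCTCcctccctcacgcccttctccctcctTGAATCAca
Itgax: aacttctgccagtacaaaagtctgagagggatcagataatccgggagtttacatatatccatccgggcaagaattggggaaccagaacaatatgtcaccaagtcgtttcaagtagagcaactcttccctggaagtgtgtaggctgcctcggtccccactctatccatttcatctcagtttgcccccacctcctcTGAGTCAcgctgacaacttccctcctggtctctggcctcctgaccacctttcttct
Mmp12: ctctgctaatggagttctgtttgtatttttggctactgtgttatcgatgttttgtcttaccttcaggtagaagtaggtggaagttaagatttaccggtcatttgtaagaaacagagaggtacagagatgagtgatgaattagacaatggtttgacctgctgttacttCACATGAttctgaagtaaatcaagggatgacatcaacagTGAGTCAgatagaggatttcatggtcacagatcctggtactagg
Spp1: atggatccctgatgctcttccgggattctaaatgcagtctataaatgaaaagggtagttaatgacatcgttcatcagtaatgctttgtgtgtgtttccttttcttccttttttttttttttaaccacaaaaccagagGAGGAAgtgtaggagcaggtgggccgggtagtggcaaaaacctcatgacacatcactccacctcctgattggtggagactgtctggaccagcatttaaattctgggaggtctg
AP-1 letters stood 9 bases before the Trem2 start, 56 before that of Itgax and 44 before that of Mmp12, or in 3 of the 10 member windows against 6.75% of all 32851 windows of 250 bases. The M-box letters were found in 1 of the 10 windows, that of Mmp12, against 3.25% of all windows. The AP-1 and M-box matches of Mmp12 lie before its downstream start, and the window at its upstream start, not printed, held the ETS core letters alone. The ETS core letters were found in 4 of the 10 windows, against 23.3% of all. CACGTG was in no member window and in 6.02% of all, and CATGTG was in 2 member windows and 12.3% of all. None of these letters stood in the Gpnmb window or in the Lgals3 window, which is not printed. These are letter matches, and factor binding was not measured.

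Across the 16 libraries the members split. Gpnmb, Trem2, Itgax, Lgals3, Mmp12 and Atp6v0d2 were each highest in male GOF 1 and next highest in female GOF 3. Cd9, Ctsk and Dcstamp were lower in GOF libraries than in controls of the same sex, and Spp1 was high only in female controls. In whole glands, more cells of a type and more RNA per cell cannot be told apart.

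**Figure D1:**
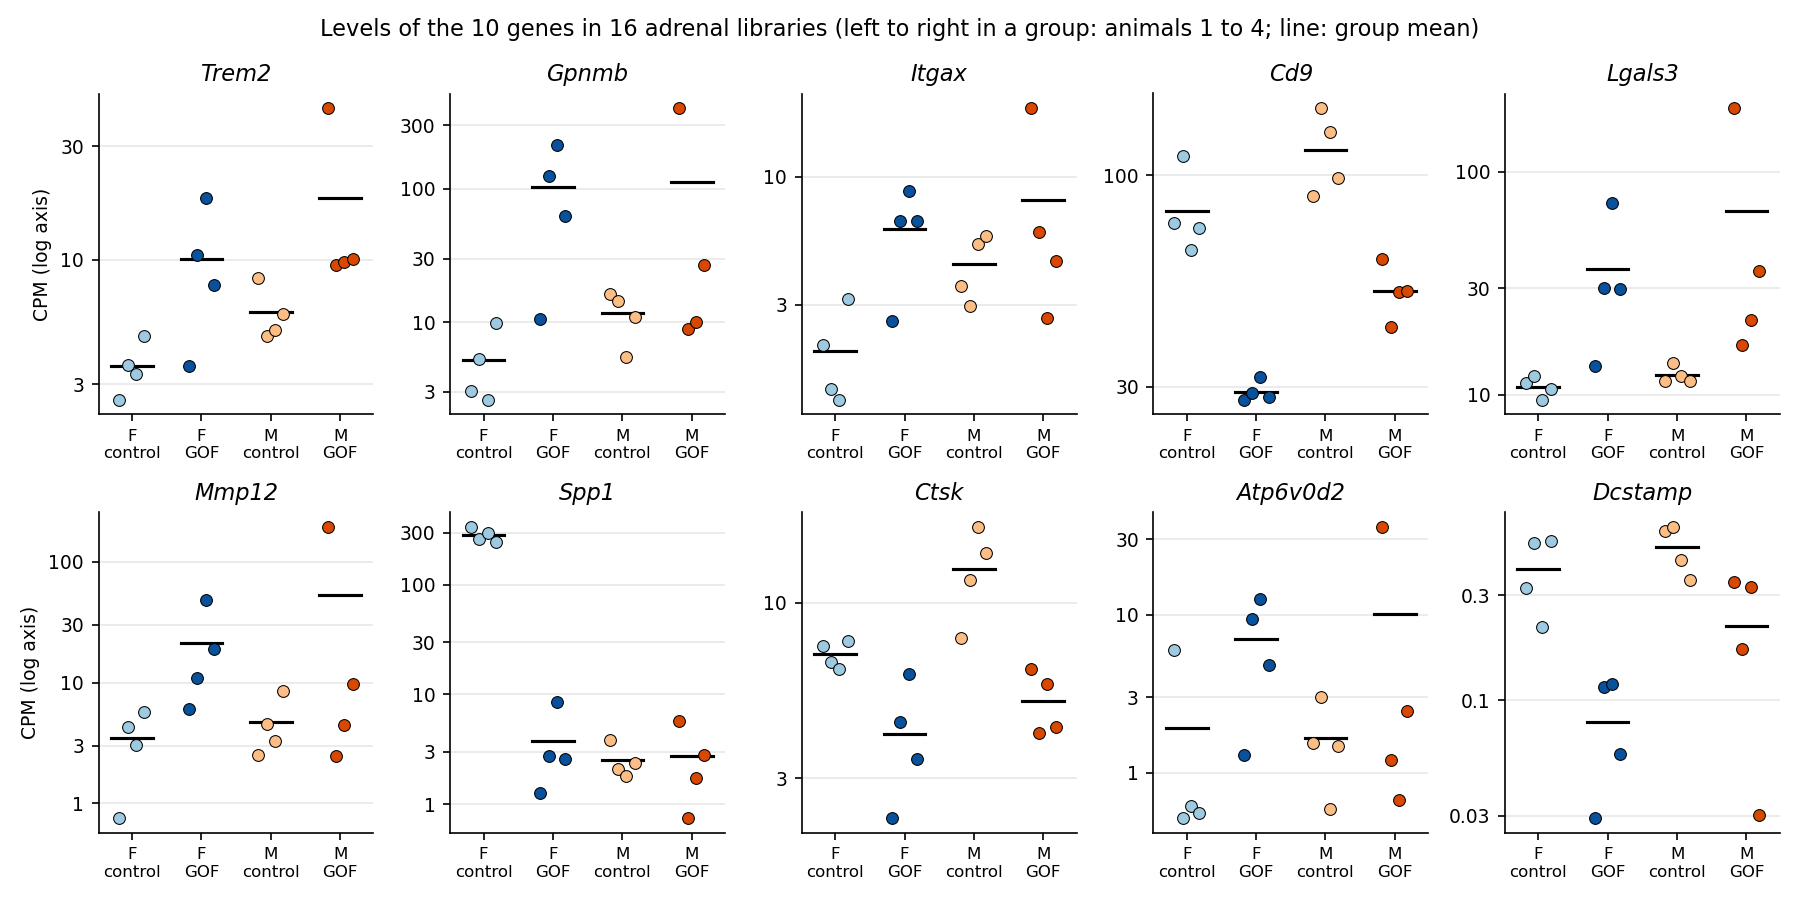
Level of each of the 10 genes in CPM (log axis) in 16 adrenal libraries; points are animals 1 to 4 from left to right within a group (F, female; M, male) and lines are group means. The first male GOF animal is the highest of all 16 libraries in 6 genes, and Spp1 is high in the 4 female controls alone.

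The surface receptors gave both patterns. Gpnmb, a heavily glycosylated transmembrane protein of lysosomes and the cell surface, was at 3.02, 5.33, 2.62 and 9.86 CPM in female controls (animals 1 to 4 in order, here and below). The GOF females were at 10.6, 124.9, 211.5 and 62.5 CPM, so every GOF female was above every control female, although female GOF 1 exceeded the highest control only slightly. Male controls had 16.2, 14.5, 5.5 and 11 CPM, and male GOF had 403.4, 8.89, 10 and 27.0 CPM. Male GOF 2 and 3 lay within the range of the male controls, male GOF 4 lay above it, and male GOF 1 was 14.9 times the next male GOF. On the log2 scale GOF differed from control by 4.3 in females (SE 1.23) and 3.25 (SE 1.16) in males. With male GOF 1 left out the male value was 0.36, and Gpnmb was no longer called. The male call was lost in 8 of 16 fits that left out 1 library: without male GOF 1, without any 1 of the male controls (3.02 to 3.44), and without female control 1, female control 2 or female GOF 2 (3.25 in each). The female call was kept in all 16.

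Trem2 was at 2.59, 3.62, 3.32 and 4.81 CPM in female controls and at 3.6, 10.5, 18.2 and 7.83 CPM in female GOF. Female GOF 1 lay inside the control range and the other 3 lay above it. In males the level was 8.4, 4.8, 5.1 and 5.9 CPM in controls and 43.3, 9.54, 9.82 and 10.1 CPM in GOF. Here all 4 GOF males lay above all 4 control males, and 3 of them were within 1 CPM of each other. GOF minus control on the log2 scale came to 1.49 in females (SE 0.53) and 1.59 (SE 0.527) in males, and 0.68 in males without male GOF 1, where the call was lost. The male call was also lost without male control 2 (1.49), 3 or 4. The female call was lost without female GOF 3 (0.99), female GOF 2 or 4, or female control 1 (1.36), 2 or 3.

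Itgax encodes CD11c, the integrin alpha chain of dendritic cells and of lipid-associated macrophages. Its level was 2.05, 1.36, 1.23 and 3.17 CPM in female controls and 2.57, 6.62, 8.75 and 6.6 CPM in female GOF. Female GOF 1 lay inside the control range and the other 3 lay above it. Male controls had 3.57, 2.98, 5.32 and 5.74 CPM and male GOF 19.1, 5.94, 2.65 and 4.53 CPM, with overlap. Fitted over all libraries, the log2 difference was 1.65 in females (SE 0.549), called, and 0.87 (SE 0.533) in males, not called and −0.03 without male GOF 1. The female call was lost without female GOF 3 (1.39), female GOF 2 or 4, or female control 1 (1.67), 2 or 3. Summed dendritic cell markers ranged in females from 42.6 to 56.1 CPM for controls and from 38.0 to 55.8 CPM for GOF.

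Cd9, a tetraspanin that many cell types carry and that restrains macrophage fusion, went the other way with little scatter. Female controls had 76.2, 111.6, 65.4 and 73.9 CPM and female GOF 27.9, 28.9, 31.7 and 28.4 CPM. Male controls had 88.8, 146.5, 128.1 and 98.2 CPM and male GOF 62.2, 42.1, 51.4 and 51.9 CPM. The groups did not overlap in either sex, and male GOF 1 was only 1.2 times the next male GOF. In log2 units the genotypes differed by −1.48 in females (SE 0.179) and −1.15 (SE 0.177) in males, and −1.27 in males without male GOF 1. The capsule, Schwann and medulla markers that were lower in GOF moved with Cd9, and their part in it was not tested.

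Among secreted and matrix-acting members, Lgals3 (galectin-3, a lectin released by activated macrophages) and Mmp12 (macrophage elastase) followed Gpnmb. Lgals3 was tightly held in controls, at 11.3, 12.1, 9.51 and 10.6 CPM in females and 11.5, 13.9, 12.1 and 11.5 CPM in males. It was at 13.5, 30, 72.8 and 29.9 CPM in female GOF and at 193.4, 16.7, 21.6 and 36.0 CPM in male GOF. Every GOF library was above every control of its sex. Between genotypes the fitted log2 difference was 1.75 in females (SE 0.667), not called, and 2.45 (SE 0.68) in males, called. The male value was 0.99 and not called without male GOF 1. In females Lgals3 was called without female GOF 1 (2.03), male GOF 1 (1.70), 2 or 3, or male control 2 (1.75). Without female GOF 3 it was 1.13 and not called. All 16 libraries enter 1 fit.

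Mmp12 was at 0.755, 4.29, 3.02 and 5.75 CPM in female controls and 6.02, 10.9, 48.3 and 19.0 CPM in female GOF, without overlap. Male controls had 2.52, 4.56, 3.28 and 8.48 CPM and male GOF 194.8, 2.49, 4.46 and 9.7 CPM. Among the male GOF libraries only male GOF 1 stood far from the controls, at 20.1 times the next. On the log2 scale GOF differed from control by 2.61 in females (SE 1.19), not called, and 3.48 (SE 1.22) in males, called. The male value was 0.21 without male GOF 1, and the call was lost. It was also lost without male control 1, 2 (3.46) or 3. The female value was 2.56 without male GOF 1, and Mmp12 was then called. Without female GOF 3 it was 1.76 and not called.

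Ctsk, the collagen-degrading cathepsin of osteoclasts that fibroblasts also make, was lower in GOF. Female controls had 7.44, 6.68, 6.37 and 7.69 CPM and female GOF 2.28, 4.4, 6.15 and 3.43 CPM. Male controls had 7.88, 11.7, 16.9 and 14.1 CPM and male GOF 6.36, 4.09, 5.73 and 4.26 CPM. The groups did not overlap in either sex, although female GOF 3 came close to the lowest control. GOF minus control on the log2 scale came to −0.79 in females (SE 0.278) and −1.30 (SE 0.279) in males. The female call was lost without female GOF 1 (−0.59) or 4, or female control 1 (−0.77), 2 or 4, and the male call in none of the 16 fits. Summed capsule and fibroblast markers ranged in females from 1374.1 to 1705.1 CPM for controls and from 340.3 to 890.1 CPM for GOF. In males they ranged from 1563.4 to 6143.8 CPM and from 815.4 to 1007.7 CPM. They were lower in the same groups as Ctsk, and their part in its difference was not tested.

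Of the fusion and acidification members, Atp6v0d2, the V-ATPase d2 subunit of osteoclasts and kidney intercalated cells, was at 6.01, 0.516, 0.616 and 0.558 CPM in female controls. Female GOF had 1.29, 9.37, 12.6 and 4.8 CPM. The 3 controls other than female control 1 lay below all GOF females. Male controls had 1.54, 3.04, 0.587 and 1.47 CPM and male GOF 36.2, 1.2, 0.676 and 2.45 CPM. Fitted over all libraries, the log2 difference was 1.86 in females (SE 1.2) and 2.61 (SE 1.23) in males, neither called. In female control 1 the kidney-type subunits Atp6v0a4, Atp6v1b1 and Atp6v1g3 were at 28.8, 15.3 and 9.16 CPM, the highest of any library, beside the kidney markers given above. Their part in its Atp6v0d2 level was not tested. Without that library the female value was 3.63 and Atp6v0d2 was called. Leaving out male GOF 1 gave −0.23 in males.

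Dcstamp, the multipass membrane protein needed for osteoclast and giant cell fusion, stayed under 1 CPM everywhere. Female controls had 0.323, 0.516, 0.215 and 0.528 CPM and female GOF 0.0292, 0.115, 0.119 and 0.0572 CPM, the latter from 1, 5, 4 and 2 counts. Male controls had 0.585, 0.614, 0.433 and 0.353 CPM and male GOF 0.345, 0.171, 0.326 and 0.0302 CPM. GOF libraries lay below controls without overlap in both sexes, narrowly so in males. In log2 units the genotypes differed by −2.24 in females (SE 0.577), called, and −1.15 (SE 0.511) in males, not called. At these counts a small number of reads sets each value. Male GOF 1, which was highest in 6 members, had Dcstamp at 1.06 times the next male GOF.

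Spp1 encodes osteopontin, a phosphoprotein of bone matrix, lipid-associated macrophages and some epithelia. It had a pattern shared with no other member. Female controls had 340.2, 263.9, 297.1 and 247.7 CPM. The other 12 libraries lay between 0.743 and 8.6 CPM. Female GOF had 1.26, 2.77, 8.6 and 2.57 CPM, male controls 3.82, 2.11, 1.79 and 2.39 CPM, and male GOF 5.73, 0.743, 1.73 and 2.81 CPM. The log2 fold change for GOF was −6.25 (SE 0.61) in females, called, and 0.13 (SE 0.572) in males, not called. Female controls 2 and 4 had 263.9 and 247.7 CPM of Spp1 and kidney marker sums of 2.13 and 1.79 CPM, and female controls 1 and 3 had 340.2 and 297.1 CPM of Spp1 and sums of 1384.8 and 230.9 CPM. The part of kidney RNA in the Spp1 level was not tested. Within the low libraries Spp1 was highest in female GOF 3 and male GOF 1, the same libraries that led for Gpnmb.

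The genes whose log2 CPM correlated most with Spp1 over the 16 libraries, looked up after its values were seen, included Akr1c18 (Pearson r = 0.95) and Pik3c2g (r = 0.96). Both are known markers of the X-zone, the inner cortical layer that regresses at puberty in males and by the first pregnancy in females. Akr1c18, an aldo-keto reductase that inactivates progesterone, was at 4552.6, 6813.3, 5830.1 and 4453.3 CPM in female controls and at no more than 1.76 CPM elsewhere. Pik3c2g, a class II phosphoinositide kinase, was at 456.6 to 568.3 CPM in female controls and at most 1.49 CPM elsewhere. The 8 genes most like Spp1 were Gm7298, Exoc6, Dock8, Pik3c2g, Mtm1, Snx7, Cd1d1 and Akr1c18, all with r of 0.95 to 0.97. Such r values are set mainly by the contrast of 4 high with 12 low libraries. After the mean of each group was subtracted, these 8 genes had r from −0.06 (Akr1c18) to 0.82 (Exoc6) with Spp1, and Gpnmb had 0.81 and Lgals3 0.87.

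**Figure D2:**
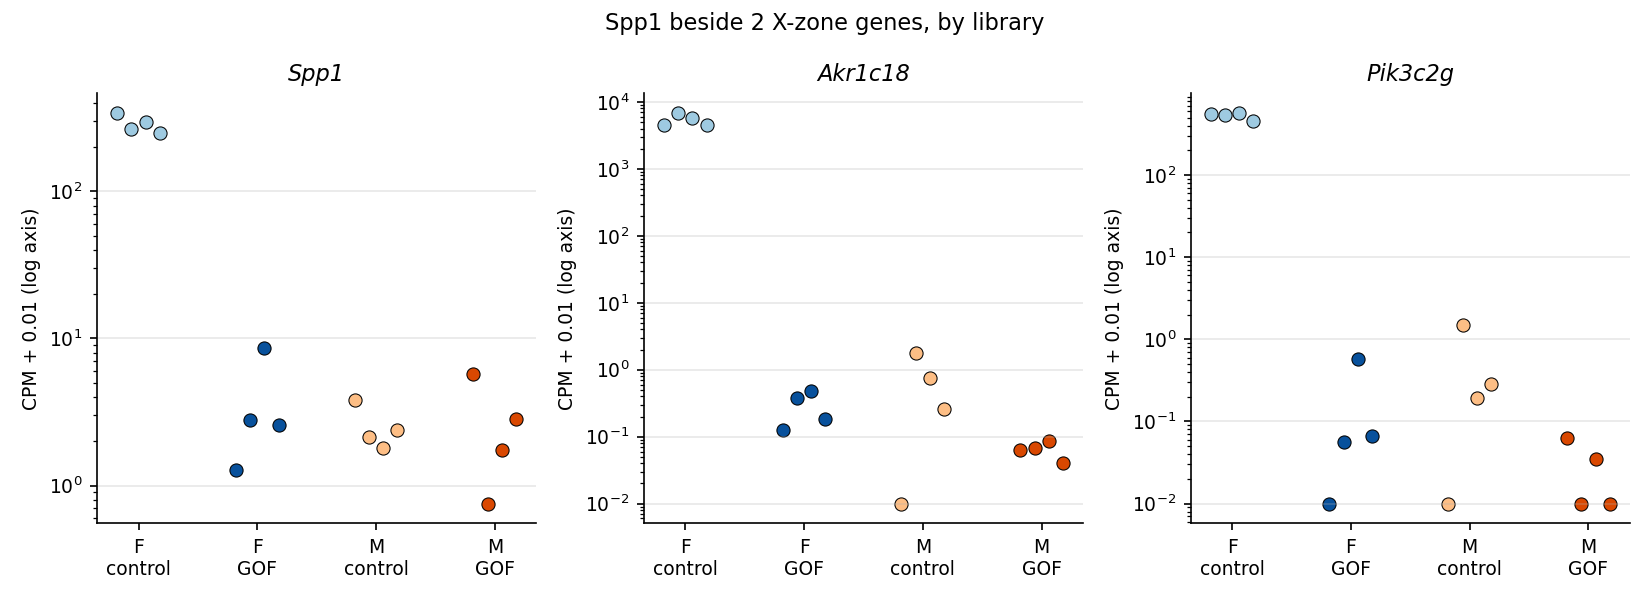
Spp1 and the X-zone genes Akr1c18 and Pik3c2g in CPM plus 0.01 (log axis), 1 point per library, in 4 groups. In the 4 female controls Spp1 is at 247.7 to 340.2 CPM, and all 3 genes are low in the other 3 groups.

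Per length, the members ranked differently by group. In female controls Spp1 led at 260.6 ± 37.5 FPKM (SD, n = 4), followed by Cd9 at 80.9 ± 19.1 FPKM and Lgals3 at 12.5 ± 1.24 FPKM. Ctsk at 4.5 ± 0.488 FPKM and Gpnmb at 2.82 ± 1.85 FPKM came next and overlapped. In male controls Cd9 led at 115.3 ± 25.5 FPKM, above Lgals3 at 14.3 ± 1.13 FPKM. In male GOF 1 Lgals3 (239.0 FPKM), Gpnmb (232.1 FPKM) and Mmp12 (103.9 FPKM) all exceeded Cd9, which had its highest male GOF level at 66.0 FPKM. By group mean Dcstamp was lowest in every group, at most 0.461 FPKM in any library. In female controls 2 and 4, however, Dcstamp (0.384 and 0.411 FPKM) was above Atp6v0d2 (0.335 and 0.379 FPKM).

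In females 7 of 10 members were called between genotypes, 3 higher and 4 lower, where 39.6% of all tested genes were called (19.0% higher and 20.6% lower). In males 6 were called, 4 higher and 2 lower, against 36.9% of all genes (15.2% higher and 21.8% lower). These contrasts took part in choosing the members, so nothing is read from the counts. Their median log2 fold change was 1.57 in females, with 0.05 for all genes, and 1.23 in males, with 0.01 for all genes. Groups did not overlap for 3 members higher and 4 lower in females, against 17.4% and 20.4% of all genes. In males this held for 2 higher and 3 lower, against 14.0% and 19.1%. Without male GOF 1 only Cd9 and Ctsk were called in males, and 9 members were called in females. Without female control 1 and male control 2, the libraries with most kidney and liver markers, 3 members were called in each sex.

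**Figure D3:**
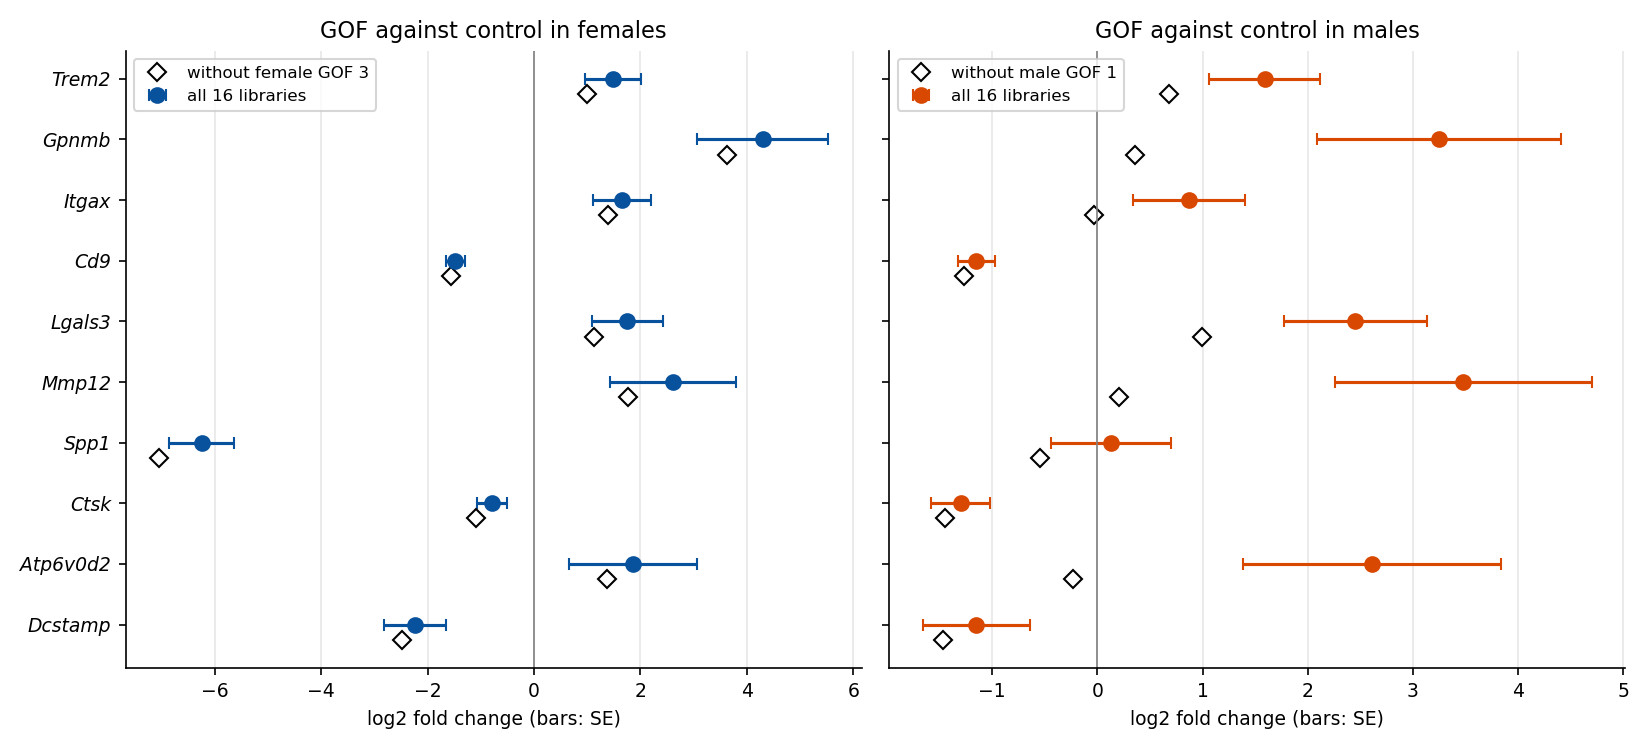
Log2 fold change of GOF against control for the 10 genes in females and males, with SE bars (filled circles, all 16 libraries), and the value without female GOF 3 or without male GOF 1 (open diamonds). Leaving out male GOF 1 brings Gpnmb from 3.25 to 0.36 and Mmp12 from 3.48 to 0.21 in males, and leaving out female GOF 3 brings them from 4.3 to 3.62 and from 2.61 to 1.76 in females.

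Males were also compared with females within each genotype, with the earlier results known, so the p-values are not independent of the choice of genes. Among controls 2 members were called, 1 higher and 1 lower in males, where 23.4% of all genes were (13.5% higher and 9.89% lower). Their groups did not overlap, which held for 14.4% of genes higher and 10.9% lower. Spp1 was lower in males with a log2 fold change of −6.83 (SE 0.632, adjusted p = 5.62e-06), lower in 4 of 4 males. Ctsk was higher in males by 0.84 (SE 0.276, adjusted p = 0.0393), with 4 of 4 males above all females. The Ctsk call was lost under 11 of 27 alternatives, among them leaving out male control 3 (0.67), and its adjusted p over all 27 ran from 0.0147 to 0.12. In controls 6 of 9 capsule and fibroblast markers were also called higher in males, and male control 3 had their highest sum (6143.8 CPM). Their part in the Ctsk difference was not tested. Cd9 was higher by 0.50 (SE 0.175) and narrowly not called (adjusted p = 0.0519). Gpnmb differed by 1.2 (SE 1.14, adjusted p = 0.486) and Trem2 by 0.75 (SE 0.525, adjusted p = 0.318), neither called.

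Among GOF animals 1 member was called, higher in males, where 29.6% of all genes were (13.3% higher and 16.3% lower). Cd9 was higher in males by 0.83 (SE 0.177, adjusted p = 0.00277), with all 4 males above all 4 females, as held for 13.4% of all genes. Dcstamp differed by 1.41 (SE 0.594, adjusted p = 0.088). For Gpnmb the difference was 0.13 (SE 1.05, adjusted p = 0.939), but it rested on male GOF 1: without that library GOF males were lower, at −2.73 (adjusted p = 0.028, within 0.028 to 1.0 over all alternatives). Mmp12 turned from 1.33 to −1.91 and Lgals3 from 0.87 to −0.55 in the same way, neither called. Leaving out a library for its level is a description of how the group is made up, not a second test.

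The interaction of sex and genotype is the difference of the genotype comparisons above, so it is given as a description without p-values for the members. Over all genes 4.21% were called (1.59% higher and 2.61% lower). Spp1 was the only member called, with a GOF effect higher in males by 6.37 (SE 0.8). It kept its call under all 26 alternatives, with values from 5.57 to 7.17. For Gpnmb the interaction was −1.04, and −3.90 without male GOF 1, not called in either case, so a difference between the sexes was not shown. The other 8 members were not called, with values from −0.78 for Itgax to 1.08 for Dcstamp.

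Macrophage content was read from 16 macrophage-wide markers, such as Csf1r, C1qa, Adgre1 and Mertk. Among females their sum lay between 226.0 and 412.8 CPM in controls and between 357.8 and 518.4 CPM with GOF. Among males it lay between 409.4 and 530.0 CPM in controls and between 578.6 and 1249.3 CPM with GOF. The highest sum was that of male GOF 1, at 1.87 times the next male GOF. Divided by this sum, Gpnmb in male GOF 1 was 7.98 times the next male GOF, Mmp12 10.7 times, Atp6v0d2 7.91 times, Lgals3 2.87 times, Trem2 2.04 times and Itgax 1.71 times. The same ratio was 1.09 for Spp1, and below 1 for Cd9 (0.56), Ctsk (0.514) and Dcstamp (0.49). These ratios rest on 1 library, and the part of macrophage content in its levels was not tested.

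In females the median of Gpnmb per unit of the marker sum was 14.4 times higher in GOF than in controls. It was 9.62 times higher for Atp6v0d2, 3.11 times for Mmp12, 2.57 times for Itgax, 2.11 times for Lgals3 and 1.86 times for Trem2. The GOF median was 0.457 of the control median for Ctsk, 0.253 for Cd9, 0.134 for Dcstamp and 0.00731 for Spp1. In males Gpnmb per unit of the sum was 0.0307, 0.0354, 0.0104 and 0.0216 in controls and 0.323, 0.0134, 0.0174 and 0.0404 in GOF, with male GOF 2 and 3 inside the control range and male GOF 4 just above it. The lowest GOF female remained above the highest control female for Gpnmb (1.25 times) and Mmp12 (1.21 times), and for no other of these 6. Female GOF 1, with the lowest of these ratios, had monocyte and neutrophil markers at 99.0 CPM against at most 19.8 CPM in the other GOF females. Among males, male GOF 2 had 155.3 CPM of those markers and 55.0 CPM of T, B and NK cell markers. Their part in the members' levels was not tested.

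**Figure D4:**
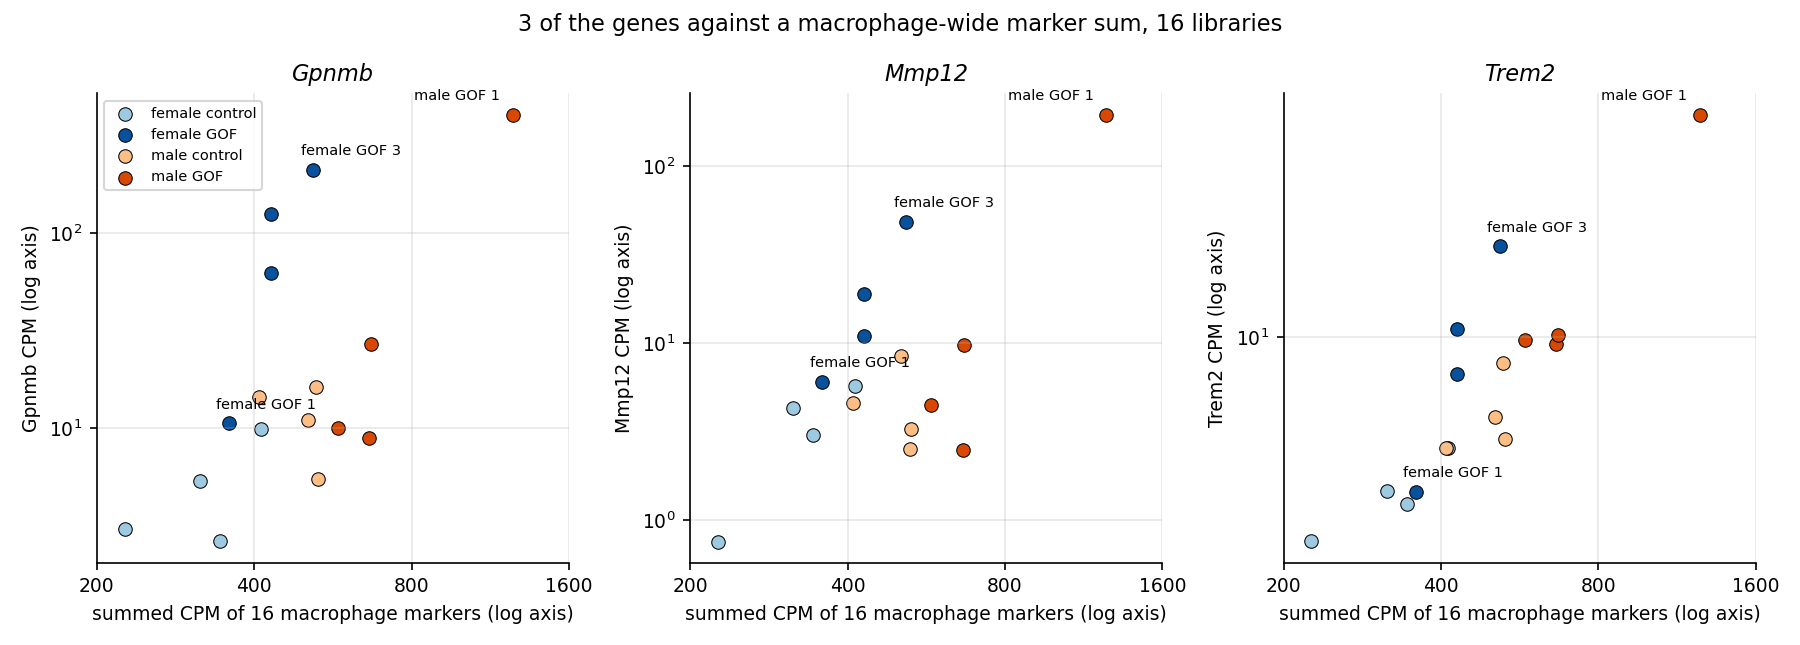
Gpnmb, Mmp12 and Trem2 against the summed level of 16 macrophage-wide markers, both in CPM on log axes, 1 point per library. Male GOF 1 lies at the upper right, with 403.4 CPM of Gpnmb at a sum of 1249.3 CPM, and female GOF 3 and 2 lie high in Gpnmb at sums that male controls also reach.

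The genes most like Gpnmb over the 16 libraries, by Pearson correlation of log2 CPM among 14826 genes outside the 10, were Adam8 (r = 0.90), a fusion-associated metalloprotease, Arl11 (0.89), Mrpl49 (0.88), Gatad2a (0.87), the lysosomal glycoprotein gene Cd68 (0.87), Cd84 (0.87), the cathepsin gene Ctss (0.86) and Man2b2 (0.85). Adam8 was at 32.6 CPM in male GOF 1 and 10.9 CPM in female GOF 3, and at 1.94 to 7.83 CPM elsewhere. Cd68 was at 96.1 CPM in male GOF 1, at 32.8 CPM in female GOF 3 and at no more than 20.2 CPM elsewhere. Mrpl49, a mitochondrial ribosomal protein gene, ranged only from 53.7 to 70.0 CPM.

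After group means were subtracted, the genes most like Gpnmb included Adam8, Cd68, Pld3, Pltp, Psap, Mrpl49 and Arl11 (r from 0.89 to 0.93). Psap encodes the lysosomal saposin precursor, and Pltp transfers phospholipids. Psap was at 3022.0 CPM in male GOF 1 and at 1011.8 to 1305.4 CPM in the other male GOF libraries. Before subtraction, Lgals3 and Mmp12 had r = 0.90 with Gpnmb, Trem2 0.87, Itgax 0.84 and Atp6v0d2 0.82. Cd9 (−0.49), Spp1 (−0.38), Dcstamp (−0.32) and Ctsk (−0.26) were then negative. After subtraction they were positive, at 0.36, 0.81, 0.49 and 0.49 in the same order. These values are a description over 16 libraries that differ in macrophage marker sum. Without male GOF 1 and female GOF 3, none of the 8 genes ranked by plain r stayed among the closest 8.

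The lists below were chosen, like the members, with earlier results of these data known. Their counts are set beside the share of all tested genes called, 19.0% higher and 20.6% lower in females and 15.2% higher and 21.8% lower in males. Neither the counts nor the adjusted p-values of list genes are independent of that choice, and they are given as a description. Of 20 other genes of the lipid-laden programme, 1 was called higher and 7 lower in females, and 2 higher and 6 lower in males, with medians of −0.29 and −0.06. In males the count called lower is not far from that share. Lipa, which encodes lysosomal acid lipase, rose in both sexes, by 1.04 (SE 0.155, adjusted p = 0.000114) and 0.84 (SE 0.154, adjusted p = 0.000636). Its means were 830.1 CPM in GOF and 402.4 CPM in controls among females, and 221.7 and 123.7 CPM among males. Mean macrophage marker sums were instead higher in males than in females in both genotypes. Which cells carried Lipa was not tested. Cd68 rose in males by 1.56 (SE 0.532, adjusted p = 0.0328), and was at 0.46 and not called without male GOF 1. That call was also lost without male control 1, 2 (1.49) or 3. Ctsl, which encodes cathepsin L, a lysosomal protease, fell in females (−1.90, adjusted p = 4.23e-06), at a mean of 91.4 CPM in GOF and 341.5 CPM in controls. Fabp4 and Cd36, which adipocytes and endothelium also express, fell, with log2 fold changes of −1.92 and −2.17 in females and −2.60 and −2.15 in males. Lpl fell in males (−3.44). In females 6 of 7 and in males 7 of 7 adipocyte markers were called lower beside them, and their part in these differences was not tested. Plin2, the lipid droplet coat gene, differed by 0.07 and −0.29, and Apoe by −0.07 and 0.20, none called.

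Of 15 tested genes of TREM2 and DAP12 signalling, 4 rose in females, near the 19.0% of all genes, and none was called lower (median 0.31). In males 10 of 15 rose, where 15.2% of all genes did, and none was called lower (median 0.76). T, B and NK cell markers had a median of 1.83 in the same comparison, with 2 of 10 called higher, Cd8a (2.65) and Cd4 (2.32). That count is near the 15.2% of all genes. Their sum was 55.0 CPM in male GOF 2, 7.97 to 11.6 CPM in the other male GOF libraries and 3.14 to 8.22 CPM in male controls. The part of these markers' cells in the counts above was not tested. Clec7a, the beta-glucan receptor dectin-1, rose by 1.73 (SE 0.551, adjusted p = 0.0224) in females and 1.66 (SE 0.542, adjusted p = 0.0265) in males. Syk, the kinase downstream of DAP12, rose by 0.94 (adjusted p = 0.0174) and 0.98 (adjusted p = 0.0141). Tyrobp, which encodes DAP12, rose in males by 0.97 (adjusted p = 0.00346) and differed by 0.56 in females (adjusted p = 0.0577). Pik3cg rose in females by 0.85. Without male GOF 1 the male count was 5 higher and 1 lower, and Clec7a was at 0.54 and not called. Without female GOF 3 the female count was 1 higher and 1 lower, and Clec7a was at 1.49 and not called. The female count called higher ran from 1 to 5 leaving out 1 library. The Syk call was lost in males without male GOF 1 and in females without female GOF 2, female GOF 3 or female control 3. Clec7a also lost its call without male control 1, 2 or 3 in males and without female GOF 4 or female control 2 in females.

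Of 18 fusion and osteoclast-type genes, 2 rose and 1 fell in females, both below the shares of all genes (19.0% and 20.6%). In males 4 rose and 3 fell, beside 15.2% and 21.8% of all genes. Leaving out 1 library moved these counts to 1 to 4 higher and 1 to 3 lower in females, with 4 and 2 without female GOF 1, and to 1 to 4 higher and 0 to 4 lower in males. Cd44 rose in females by 0.88 and Il4ra by 0.95, while Cd47, a ligand of the fusion receptor SIRPA, fell (−0.66). In males Adam8 rose by 1.73, Tnfrsf11a (RANK) by 0.80 and Tcirg1, a V-ATPase a-subunit gene, by 0.62. Acp5 (tartrate-resistant acid phosphatase) fell in males (−1.10), as did Car2 (−0.67) and Nfatc1, the osteoclast master factor (−0.38). Without male GOF 1, or without male control 1 or 2, only 1 gene was called higher in males. Without male GOF 1 Adam8 was at 0.47, Tnfrsf11a at 0.62 and Car2 at −0.72, none called. The Adam8 call was also lost without any 1 male control, that of Tnfrsf11a without male control 1, male control 2 or male GOF 4, and that of Acp5 without male control 3 or male GOF 2, 3 or 4. Car2 lost its call in 9 of 16 such fits, and Nfatc1 without male control 3. The Il4ra call was lost without female control 1 (0.91), female control 4 or female GOF 2. Ocstamp, a partner of Dcstamp in fusion, was at most 0.816 CPM in any library, and Calcr, a marker of mature osteoclasts, at most 0.189 CPM.

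Of the other V-ATPase subunits, 1 of 20 was called higher and 8 lower in females, and 0 higher and 9 lower in males, where 20.6% and 21.8% of all genes were called lower. The male count was 5 without male control 1 or 2 and 4 without male GOF 2 or 4. Atp6v1b2, a subunit of neuroendocrine vesicles and osteoclasts, fell, with −0.65 in females and −1.0 in males, as did all 8 medulla markers. The part of the medulla in it was not tested. Atp6v1c2 fell too, with −2.23 and −0.96, and Atp6ap2 in males (−0.57), while Atp6v0e2 rose in females by 0.36. Leaving out female GOF 3 or 4 ended the Atp6v0e2 call, and the male Atp6v1c2 call was lost without control 2, GOF 2 or GOF 4 of the males. Atp6v0a4 fell in females (log2 fold change −5.58), with 28.8 CPM in female control 1, and was at −3.49 without that library. Of 20 MiT/TFE factors and lysosome genes, 1 was called higher and 6 lower in females, and 1 higher and 2 lower in males, where fewer were called lower than the 21.8% of all genes. Rragd, a RAG GTPase of lysosomal nutrient sensing, fell, with −0.87 in females and −0.99 in males. Ctsa rose in females by 0.48. Leaving out female control 2, female GOF 3 or female GOF 4 ended the Ctsa call. Mitf, the factor known to drive Gpnmb in melanocytes and osteoclasts, fell, with −0.59 in females (adjusted p = 0.0149) and −0.56 in males (adjusted p = 0.0203). Tfec, its macrophage-restricted relative, rose in males by 1.46 (adjusted p = 0.0178) at a mean of 1.98 CPM. The male Mitf call was lost without male control 1, male control 2 (−0.49) or male GOF 3. Tfec, without male GOF 1, was at 1.13 and not called, and the male count was 0 higher and 6 lower.

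Of 16 macrophage-wide markers, 3 were called higher and 2 lower in females (median 0.45), no more than the 19.0% and 20.6% of all genes. In males 8 were called higher and 2 lower (median 0.65), beside 15.2% and 21.8% of all genes. Ms4a7 rose by 1.64 (adjusted p = 0.00113) and 1.28 (adjusted p = 0.00564). In females Adgre1 (0.86) and Aif1 (0.68) rose, and in males Mpeg1 (1.0) and Cx3cr1 (0.87). The Aif1 call was lost without female GOF 3, that of Adgre1 without female control 1, 2 or 3 or female GOF 3 or 4, and that of Mpeg1 without male GOF 1 (0.33), any 1 male control, or female GOF 2 or 4. Lyve1 and Cd163, markers of perivascular resident macrophages, fell, with log2 fold changes of −2.58 and −1.23 in females and −2.03 and −1.41 in males, and these 4 calls held under all 27 alternatives. Which cells carried the Lyve1 and Cd163 RNA was not tested. Without male GOF 1 the count of markers called higher was 3 in males and 6 in females. It was 1 in females without female GOF 3 and 3 in males without male control 2. It was 5 in females without female control 4, and 5 in males without male control 4, female GOF 2 or female GOF 4. Between the sexes 11 of 16 markers were called higher in males in each genotype, where 13.5% of all genes were in controls and 13.3% in GOF, and no marker was called lower. The count in controls was 7 without female control 1 or 3. Of the genes for macrophage growth factors and their receptors, Csf1 rose by 0.62 in females and 0.38 in males, the latter not called without male GOF 1 (0.32), male GOF 2 or male control 3. Csf2ra rose by 0.60 in females, not called without female GOF 3 (0.42), and by 0.61 in males. Il34 fell in females (log2 fold change −3.39, adjusted p = 1.44e-06), with 34.8 to 53.8 CPM in controls and 3.52 to 5.09 CPM in GOF, and differed by −0.25 in males (adjusted p = 0.474).

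**Figure D5:**
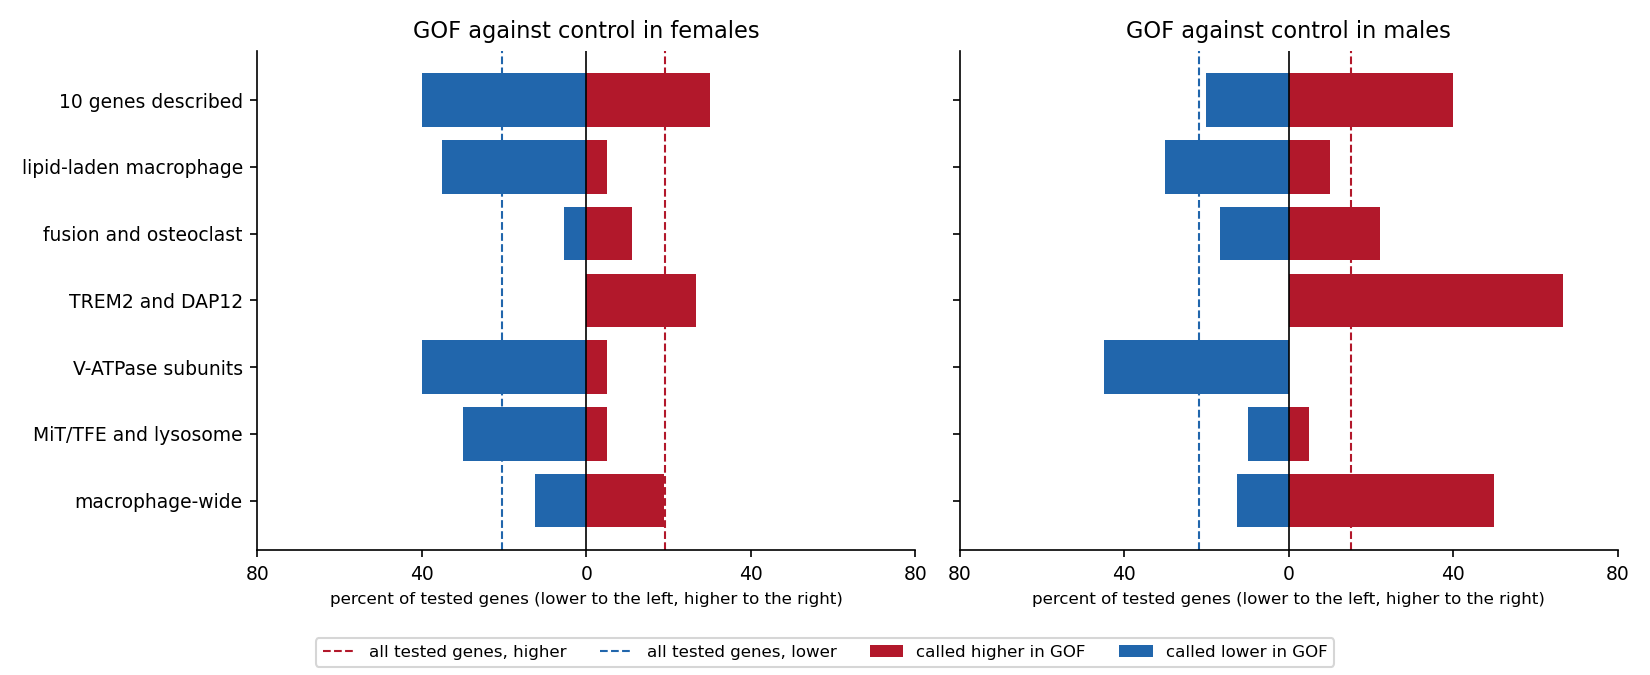
Percent of tested genes called higher (red, to the right) or lower (blue, to the left) in GOF against control, for the 10 genes and 6 lists of related genes, in females and males; dashed lines give the percent over all 18214 tested genes. In males 10 of 15 TREM2 and DAP12 signalling genes and 8 of 16 macrophage-wide markers were called higher, and 8 (females) and 9 (males) of 20 V-ATPase subunits were called lower. The genes and lists were chosen with earlier results of these data known.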

How the data were processed

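RNA from frozen whole adrenals (RNeasy, RIN of at least 7.0) was made into NEBNext Ultra libraries and read as 150-base pairs, per the labels' protocols. The submitters' processing notes name Bowtie2 2.2.3, TopHat2 2.0.12, HTSeq 0.6.1 and DESeq 1.18.0 without their roles; the genome build, annotation and strand setting are not given in the sources used here. The authors deposited raw read counts per gene and FPKM for 54838 genes. Of these identifiers 54809 are in GENCODE M21 (GRCm38), and the length implied by the deposited FPKM and counts equals that annotation's mean transcript length within 0.1% for 97.4% of 34180 genes.

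Counts were tested with edgeR 4.0.16 (R 4.3.3): TMM scaling, robust quasi-likelihood fits over all 16 libraries, filterByExpr (minimum count 10, 18214 genes), Benjamini-Hochberg threshold 0.05. The members and lists were chosen with earlier results of these data known. Named genes of the pathway and macrophage lists were, per genotype comparison, up to 3 called genes with the highest and up to 3 with the lowest fold change where 1 of the groups averaged 1 CPM or more; genes like Gpnmb were the 8 with the highest r. Of these, 1 list gene and 1 gene like Gpnmb are not reported here. Other genes named (Plin2, Apoe, Ocstamp, Calcr, the kidney-type V-ATPase subunits, Tyrobp in females, Il34 in males and the genes like Spp1) were picked after their values were seen. On simulated counts for GOF against control in females (18214 genes, 200 changed), 55% of 2-fold and 81% of 4-fold changes were recovered and 5.6% of calls were unchanged genes. These rates need not hold for the real counts. There 39.6% of genes were called in that comparison, and genes vary together, whereas each simulated gene was drawn independently. Replicates differed by more than counting noise (chi-square per degree of freedom at least 29.0 over 24 pairs). Likeness used log2 CPM with a prior count of 2. Alternatives were other scalings, filters, DESeq2 1.42.0, limma 3.58.1 on log2(FPKM + pseudocount), and libraries left out.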

Additional observations from a re-analysis of the deposited data

Results flagged for a closer look

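In 40 groups of 4 libraries (10 genes by 4 groups), 6 held a library set apart from its group. Its gap to the nearest neighbour was a larger part of the group's range than Dixon's 95% critical value for 4 samples. That value flags about 1 in 20 groups by chance only where levels are normally distributed. The gaps were taken on CPM and not on a log scale, so that rate cannot be set against the 6 flags. Male GOF 1 gave 5 of them. It had Gpnmb at 403.4 CPM with the next male GOF at 27.0, Trem2 at 43.3 with the next at 10.1, and Lgals3 at 193.4 with the next at 36.0. In the same library Mmp12 was at 194.8 CPM with the next at 9.7, and Atp6v0d2 at 36.2 with the next at 2.45. Female control 1 had Atp6v0d2 at 6.01 CPM, with its nearest neighbour at 0.616, and also the highest kidney marker sum. The 5 flags in male GOF 1 concern genes that vary together and come from 1 animal.

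The GOF effect on Spp1 was 6.37 higher in males than in females on the log2 scale (interaction term of edgeR's quasi-likelihood test, past its threshold). Spp1 was chosen with the genotype results of these libraries known, so this is a description and not an independent test.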

How the results depend on the processing

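No paired analysis was possible because the labels number no replicates across groups. Of 1323 fold changes of the 10 genes under an alternative, 1168 kept their direction and side of the threshold, 77 lost a call, 22 gained one and 56 turned sign; the causes were not tested. The alternative without female control 1, male control 2 and male GOF 1 was added after seeing the data ("3 libraries out" below). The median of all genes in the genotype comparisons (0.052 in females, 0.00706 in males) was 0.0947 and 0.104 with limma on log2(FPKM + 1) filtered, 0.11 and 0.119 with a pseudocount of 0.1, and 0.00195 and 0.0142 unfiltered.

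Members called in females (7) were 4 with limma on log2(FPKM + 1) unfiltered, 3 without female control 1 and male control 2, and 4 to 9 leaving out 1 library. In males (6) they were 3 with no filter, 3 with only the groups compared, 2 with limma unfiltered, 3 without female control 1 and male control 2, 2 with 3 libraries out, and 2 to 6 leaving out 1 library. For sex in controls (2) they were 1 with no filter, with limma unfiltered, without female control 1 and male control 2, and with 3 libraries out, and 1 to 3 leaving out 1; all genes called (4267) ranged from 2650 to 4881 leaving out 1. For sex in GOF (1) they were 3 with 3 libraries out and 1 to 2 leaving out 1. Genes called for the interaction (766) were 408 with no filter, 407 with limma unfiltered, 448 without female control 1 and male control 2, 354 with 3 libraries out, 1434 with DESeq2, and 377 to 953 leaving out 1. Of the 8 genes most like Gpnmb, 1 was shared with Spearman's rho and 0 without male GOF 1 and female GOF 3.

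Sign changes of log2 values that were not called with all libraries follow. In 3 cases the turned value was called, all for sex in GOF: Gpnmb without male GOF 1 (adjusted p = 0.028) and with 3 libraries out (0.0322; 0.028 to 1.0 over all alternatives), and Atp6v0d2 with 3 libraries out (0.0267; 0.0267 to 0.932), by edgeR's quasi-likelihood test. GOF in males: Spp1 was −0.05 with limma on log2(FPKM + 0.1), −0.63 with 3 libraries out and −0.55 to 0.42 leaving out 1 (0.0 without male control 3); Atp6v0d2 ranged from −0.23 to 3.07; Itgax was −0.18 with 3 libraries out and −0.03 to 1.16 leaving out 1. Sex in controls: Atp6v0d2 was 0.10 and 0.39 with limma at pseudocounts 1 and 0.1, 0.10 unfiltered, 1.09 without female control 1 and male control 2, 1.08 with 3 libraries out, and −0.69 to 1.55 leaving out 1 (0.06 in 1 of them).

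Sex in GOF, with limma at pseudocounts 1 (filtered or not) and 0.1: Gpnmb was −0.91 and −0.97, Mmp12 −0.13 and −0.29, Atp6v0d2 −0.38 and −0.70. With 3 libraries out, Gpnmb was −2.73, Trem2 −0.02, Lgals3 −0.55, Mmp12 −1.91, Atp6v0d2 −2.28 and Itgax −0.48. Leaving out 1 library, Gpnmb ranged from −2.73 to 0.79 (−0.24 and −0.02 among them), Trem2 from −0.02 to 1.33, Spp1 from −1.10 to 0.33, Lgals3 from −0.55 to 1.47, Mmp12 from −1.91 to 2.16, Atp6v0d2 from −2.27 to 0.99 and Itgax from −0.48 to 0.71.

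Interaction, with the same limma fits: Mmp12 was −0.46 and −0.86, Atp6v0d2 −0.47 and −1.09; Atp6v0d2 was −0.56 without female control 1 and male control 2. With 3 libraries out, Trem2 was −0.73, Lgals3 −0.67, Mmp12 −2.04 and Atp6v0d2 −3.35. Leaving out 1 library, Trem2 ranged from −0.76 to 0.59 (−0.08 and −0.18 among them), Lgals3 from −0.71 to 1.31, Mmp12 from −2.35 to 1.72 and Atp6v0d2 from −2.04 to 1.23 (−1.02 among them).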
